A study of Homo sapiens with 9 samples.

Results

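Replication-dependent histone genes encode the bulk histones that package new DNA, and their transcripts were followed here in H1299 cells, an established human lung cancer line. Members were the rows of the deposited expression table whose gene name begins with HIST1H, HIST2H, HIST3H or HIST4H, leaving out names with a pseudogene suffix. This gave 75 genes of 58735 in the table, after 15 of 90 rows with these prefixes were left out. By histone type the members were 6 H1, 17 H2A, 23 H2B, 14 H3 and 15 H4 genes. GENCODE 29 gives 5 of the 75 a pseudogene type in spite of their names, 2 of which, HIST2H2BC and HIST2H2BD, were expressed enough to be fitted. The RNA came from a pair of monoclonal lines in which BCKDK, the kinase that inhibits branched-chain ketoacid dehydrogenase, had been edited with CRISPR, and from control cells. KO1 and KO2 are those lines, each grown from a single edited cell by limiting dilution, and Vector denotes H1299 cells labelled wild type and transduced with lentiviral lentiCRISPR v2 plasmid. Each group had 3 libraries. A p-value here measures the spread between the libraries within a group, pooled over all 3 groups. The labels name no separate cultures, so this spread may be technical. For loss of BCKDK in general there are 2 clones.

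Nucleosomes wrap DNA around an octamer built from H2A, H2B, H3 and H4, and H1 binds the linker DNA outside it. Most genes for these proteins lie in tight clusters, have no introns and are transcribed in S phase, when cells copy their DNA. Their mature mRNAs are known to end in a conserved stem-loop rather than a poly(A) tail, and the stem-loop is bound by SLBP. When replication stops or cells leave the cycle, some of these genes are instead known to give polyadenylated transcripts that run past the stem-loop. The labels do not say whether poly(A) selection was used, and a method that selects tails would measure mainly such transcripts.

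Values are FPKM, read numbers scaled to exon length and library size. The annotated length differs between members, from 381 bases in HIST1H2BK to 2250 bases in HIST1H2AG among the abundant ones. Levels of different genes therefore compare only roughly, and one gene compares better between libraries. Recovered depth was 16002212 to 17090445 reads per library, of which 0.02% to 0.042% fell on the 75 members. BCKDK itself was at 1.91, 2.06 and 1.67 FPKM in KO1 and 0.628, 0.576 and 0.287 FPKM in KO2, against 13.7, 12.9 and 17.5 FPKM in Vector. KO2 replicate 3 and Vector replicate 3 were unlike their group's other libraries: chi-square per degree of freedom of their recovered reads was 39.1 to 46.4 against those libraries, and 2.35 to 6.21 for the remaining pairs within a group. Of the epithelial keratins, KRT8 had a mean of 119.8 FPKM in KO1, 16.2 FPKM in KO2 and 16.2 FPKM in Vector and KRT18 of 331, 92.2 and 63.2 FPKM in the same order, and the mesenchymal marker VIM was at 591 FPKM in KO1, 513 FPKM in KO2 and 702 FPKM in Vector. FN1, another mesenchymal marker, had means of 28.9 FPKM in KO1, 57.2 FPKM in KO2 and 5.80 FPKM in Vector, and ZEB1 lay between 6.34 and 9.92 FPKM in all libraries. The epithelial and lung adenocarcinoma markers KRT19, EPCAM, CDH1, NKX2-1, NAPSA and SFTPB were under 1 FPKM in every library. All 9 markers of blood, endothelial and fibroblast cells were under 1 FPKM in every library.

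The 3' stem-loop is shown first because histone mRNAs that end at it carry no tail. The pattern GGCNCTTNTNAGNGCC was searched on the sense strand of each member's GENCODE 29 transcripts and found in 35 of 75 members. Among 58601 other genes with transcripts, 13 (0.02%) held it. The capitals mark the 16 bases of the pattern and the lower case letters its flanks, in members with a high level or a called change.
HIST1H2AC: ccaaaGGCTCTTTTCAGAGCCcccctac
HIST1H2AG: ccaacGGCTCTTTTCAGGGCCacccacg
HIST1H2AE: ccaaaGGCTCTTTTCAGAGCCacccacc
HIST1H2BN: ccaaaGGCTCTTTTCAGAGCCactcagt
HIST1H3H: ccaaaGGCTCTTTTCAGAGCCacccaca
HIST1H4I: aaaaaGGCCCTTTTTAGGGCCcctaagc
HIST1H4H: ccaaaGGCCCTTTTCAGGGCCgcccact
HIST1H4J: taaaaGGCCCTTTTCAGGGCCacccta
All 8 H4 loops had CCC in the stem and the H2A, H2B and H3 loops had CTC at that place, 18 of them in the form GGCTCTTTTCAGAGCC. Which part of the transcript the annotation covers differed between members. In 24 members the annotation runs 200 or more bases past the loop, in 11 it stops within 200 bases of it, and in 40 no loop is annotated, 36 of these with an exon length that is a multiple of 3. HIST1H2BK, HIST1H2BO and HIST1H4K belong to the last group, so their counts cover coding sequence without the 3' end, whereas those of HIST1H2AC and HIST1H2AG also cover a long stretch beyond the loop.

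Promoter windows of 250 bases before to 50 bases after the RefSeq start (GRCh38.p14) were found for 61 of 75 members. The 5 below belong to the genes with the largest changes, and the capitals mark TATAAA, the core promoter box, CCAAT, the box bound by NF-Y, and ATTTGCAT, the octamer bound by OCT1, on either strand, with overlapping matches joined.
HIST1H2BO (chr6:27893175-27893474, plus strand): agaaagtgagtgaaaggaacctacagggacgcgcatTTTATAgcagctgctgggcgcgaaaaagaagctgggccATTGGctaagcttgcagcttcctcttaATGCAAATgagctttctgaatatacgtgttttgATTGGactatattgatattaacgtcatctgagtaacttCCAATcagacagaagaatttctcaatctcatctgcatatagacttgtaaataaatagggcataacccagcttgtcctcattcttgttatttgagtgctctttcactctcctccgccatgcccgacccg
HIST1H2BJ (chr6:27132746-27133045, minus strand): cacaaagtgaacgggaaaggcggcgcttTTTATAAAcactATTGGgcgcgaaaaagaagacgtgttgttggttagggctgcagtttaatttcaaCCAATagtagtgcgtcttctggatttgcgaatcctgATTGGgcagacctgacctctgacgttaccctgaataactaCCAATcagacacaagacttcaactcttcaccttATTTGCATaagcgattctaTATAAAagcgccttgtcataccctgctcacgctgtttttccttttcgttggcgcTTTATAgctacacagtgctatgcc
HIST1H2AE (chr6:26216671-26216970, plus strand): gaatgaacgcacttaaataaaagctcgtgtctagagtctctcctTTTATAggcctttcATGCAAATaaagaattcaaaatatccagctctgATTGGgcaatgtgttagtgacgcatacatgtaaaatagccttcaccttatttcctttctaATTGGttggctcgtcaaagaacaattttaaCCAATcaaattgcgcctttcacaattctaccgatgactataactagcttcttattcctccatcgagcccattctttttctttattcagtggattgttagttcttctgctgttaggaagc
HIST1H4J (chr6:27823842-27824141, plus strand): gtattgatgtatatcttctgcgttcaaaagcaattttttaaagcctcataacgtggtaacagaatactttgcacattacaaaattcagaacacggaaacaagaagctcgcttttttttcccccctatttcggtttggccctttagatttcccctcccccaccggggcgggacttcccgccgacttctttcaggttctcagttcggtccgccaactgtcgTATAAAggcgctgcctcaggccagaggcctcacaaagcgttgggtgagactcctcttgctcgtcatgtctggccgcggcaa
HIST1H4K (chr6:27831511-27831810, minus strand): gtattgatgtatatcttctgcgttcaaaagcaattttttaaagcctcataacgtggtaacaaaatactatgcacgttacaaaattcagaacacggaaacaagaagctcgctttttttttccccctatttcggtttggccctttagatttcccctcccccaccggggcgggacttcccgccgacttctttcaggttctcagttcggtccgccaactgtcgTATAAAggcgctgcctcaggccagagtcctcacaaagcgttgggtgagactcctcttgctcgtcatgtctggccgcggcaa
The octamer stood in 14 of 18 H2B windows, 11 of 14 H2A windows and 1 of 10 H3 windows, and in 0 of the 6 H1 and 13 H4 windows, against 1.8% of 35116 RefSeq windows. CCAAT stood in 100% of the H1, H2A, H2B and H3 windows and 23.1% of the H4 windows, against 34.6% of all windows. TATAAA stood in 65.6% of the members' windows, against 11.5% of all. The HIST1H4J and HIST1H4K windows differed at 5 of 300 bases. A match is a description of these letters and was not tested as a binding site.

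Expression of the members was concentrated in a few genes. Averaged over the 9 libraries, 34 members reached 0.5 FPKM (3 H1, 7 H2A, 14 H2B, 4 H3 and 6 H4), and only these entered the statistical fit. Of the other 41, 10 were at 0 in every library and 31 had at least 1 read in some library, with means up to 0.448 FPKM. HIST2H2BF and HIST1H2AH lay just under the limit at means of 0.448 and 0.442 FPKM, and HIST1H1E and HIST1H2BE just above it at 0.516 and 0.518 FPKM. A member can pass this limit through 1 group, as 6 of the 34 had a group mean under 0.5 FPKM. H2B genes made up 68.9% of the summed FPKM of all members, H2A 11%, H4 9.6%, H1 7.72% and H3 2.85%. HIST1H2BK, an H2B gene on chromosome 6, gave 78% of the H2B sum with a mean of 236 FPKM. Its annotated 381 bases lack the 3' end, and 74.1% of its 50-base stretches are shared with other genes. These shares of summed FPKM therefore depend on the annotation. HIST1H1C, which encodes linker histone H1.2, gave 96% of the H1 sum (mean 32.6 FPKM), HIST1H3H 72.8% of the H3 sum (9.12 FPKM), HIST1H4I 72.4% of the H4 sum (30.5 FPKM) and HIST1H2AC 38.5% of the H2A sum (18.5 FPKM). Next in level came HIST1H2BJ, HIST2H2BE, HIST1H2BD and HIST1H2BC among H2B genes and HIST1H2AG and HIST3H2A among H2A genes, at means between 8.19 and 15.6 FPKM. HIST1H3B, HIST1H3J and HIST1H3G, the next H3 genes, had means of 0.591 to 1.29 FPKM.

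By type, the summed level was highest in KO1 for H2A, H2B, H3 and H4, and the H2B sum carried most of the difference. H2B genes summed to 428, 394 and 383 FPKM in KO1, 278, 270.1 and 193 FPKM in KO2, and 246, 229 and 302 FPKM in Vector. The KO1 libraries lay above all others, and the KO2 and Vector libraries overlapped. The ratio of the mean H2B sums was 1.55 for KO1 to Vector and 0.955 for KO2 to Vector. H2A genes summed to 61, 62.1 and 56.1 FPKM in KO1, 39.3, 39.2 and 26.8 FPKM in KO2, and 50.4, 45.8 and 52.3 FPKM in Vector, so that KO1 lay above Vector and KO2 below it with no overlap. H4 sums were 47.4, 50.3 and 46.8 FPKM in KO1, 38.7, 39.3 and 28.5 FPKM in KO2, and 49, 41.9 and 37.7 FPKM in Vector, and KO1 and Vector overlapped. H3 sums were 14.5, 15.2 and 13.7 FPKM in KO1, 12.4, 10.4 and 8.49 FPKM in KO2, and 14.4, 10.3 and 13.2 FPKM in Vector, again with overlap. H1 was the exception in KO1, at 35.6, 34.1 and 30.3 FPKM, with 33.8, 33.9 and 14.1 FPKM in KO2 and 40.9, 34.5 and 48.1 FPKM in Vector. KO2 replicate 3 had the lowest sum of all 9 libraries for every type. It was the lowest library of its group in 24 of the 34 fitted members (70.6%), against 43.8% of all fitted genes. Without HIST1H1C the H1 ratio of KO1 to Vector became 2.62 in place of 0.81, and without HIST1H3H the H3 ratio became 0.845 in place of 1.15, so those directions rest on a single gene. No test was run on these sums. Cell cycle phase was not measured, so fewer cells in S phase and less histone RNA per cell cannot be told apart.

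**Figure D1:**
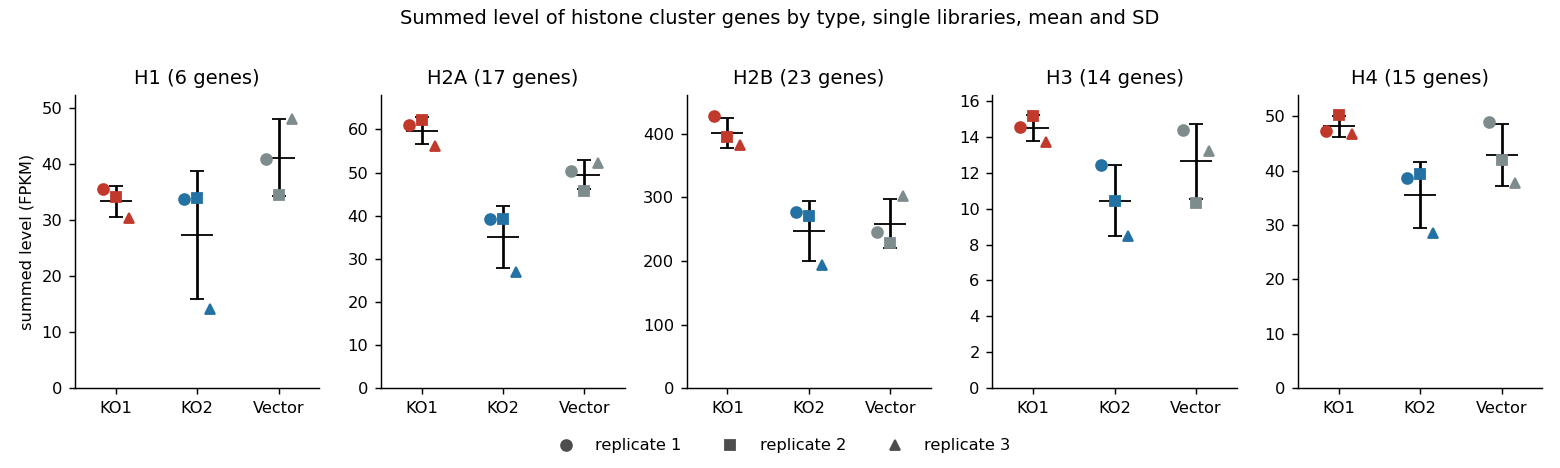
Summed FPKM of all members of each histone type (vertical axis, from 0) in KO1, KO2 and Vector, with symbols for replicates 1 to 3 and bars for the mean and SD of 3 libraries. The H2B sums of KO1, 383 to 428 FPKM, lie above the 193 to 302 FPKM of the other 6 libraries, and KO2 replicate 3 is lowest for every type.

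In KO1 more histone genes were higher than lower, and most of the higher ones lay on chromosome 6 between 27.13 and 27.89 Mb. Fold changes are log2 differences of FPKM + 1, which understate changes of low genes, fitted with limma over the 16426 genes of the table that reached 0.5 FPKM on average. A call means a p under 0.05 after Benjamini-Hochberg adjustment over all of them. Against Vector, 11 of the 34 fitted members (32.4%) were called higher in KO1, where 17.4% of all fitted genes were, and 2 (5.9%) lower, where 16.7% of all were (34.1% in either direction). Of the 11, HIST1H1B and HIST1H1E passed the limit of 0.5 FPKM only through KO1, so this count was shaped by that limit. The median log2 fold change was 0.21 over the members and 0.01 over all fitted genes. By type, 4 of 14 H2B genes were called higher and 1 lower, 3 of 7 H2A genes higher and 1 lower, 2 of 3 H1 genes higher, 2 of 6 H4 genes higher, and 0 of 4 H3 genes in either direction (1 of these had an unadjusted p under 0.05).

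Among H2B genes the largest changes were those of HIST1H2BO and HIST1H2BJ. HIST1H2BO (chr6:27893463-27893843, hg38, plus strand, protein-coding) was at 13.8, 12.8 and 14.8 FPKM in KO1, 2.38, 2.93 and 3.57 FPKM in KO2, and 2.71, 1.24 and 1.64 FPKM in Vector. Its log2 fold change in KO1 was 2.40 ± 0.18 (SE, n = 3 libraries a group, limma adjusted p = 1.88e-05), and the KO1 libraries stood far above the other 6. HIST1H2BJ (chr6:27125897-27132750, minus strand, protein-coding) was at 30.9, 33.5 and 31.5 FPKM in KO1, 7.93, 6.93 and 5.53 FPKM in KO2, and 7.23, 8.46 and 8.63 FPKM in Vector. Its change in KO1 was 1.86 ± 0.13 (limma adjusted p = 9.65e-06), again with no overlap between KO1 and the rest. HIST1H2BN was at 3.81, 3.40 and 3.92 FPKM in KO1, 1.47, 1.62 and 1.27 FPKM in KO2, and 2.20, 1.83 and 1.88 FPKM in Vector, a change of 0.67 ± 0.10 in KO1 (limma adjusted p = 0.00122). The most abundant member, HIST1H2BK (chr6:27146418-27146798, minus strand), was at 331, 298 and 290.4 FPKM in KO1, 219.9, 216 and 152 FPKM in KO2, and 191, 178 and 247 FPKM in Vector. KO1 lay above Vector in all libraries, by 0.59 ± 0.18 (limma adjusted p = 0.0301), but 5 of the 9 fits with a library removed lost this call, those without any 1 of the KO1 libraries, Vector replicate 1 or Vector replicate 2, with an adjusted p up to 0.105. The other abundant H2B genes, HIST2H2BE on chromosome 1 and HIST1H2BD and HIST1H2BC on chromosome 6, had log2 fold changes in KO1 of 0.39 ± 0.23, 0.12 ± 0.18 and -0.20 ± 0.10 and were not called.

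H2A genes moved in both directions. HIST1H2AG (chr6:27133042-27135291, plus strand) was at 11, 13.5 and 13.7 FPKM in KO1, 5.31, 6.32 and 4.72 FPKM in KO2, and 7.70, 8.61 and 8.19 FPKM in Vector, so that the 3 groups did not overlap. It rose in KO1 by 0.58 ± 0.12 (limma adjusted p = 0.00656). HIST1H2AI was at 7.60, 8.31 and 7.76 FPKM in KO1 and 3.87, 3.88 and 5.66 FPKM in Vector and rose by 0.72 ± 0.17 (limma adjusted p = 0.0123), and HIST1H2AL, called too, rose by 0.56 ± 0.15 (limma adjusted p = 0.0208). The HIST1H2AL call was lost without KO1 replicate 1, KO1 replicate 2 or Vector replicate 1, with an adjusted p up to 0.0824. HIST1H2AE (chr6:26216975-26217483, plus strand) went the other way in both clones, at 1.72, 2.42 and 1.16 FPKM in KO1, 2.56, 2.85 and 0.485 FPKM in KO2, and 5.61, 4.29 and 5.48 FPKM in Vector. All 6 knockout libraries were below all Vector libraries. Its log2 fold change was -1.16 ± 0.33 in each clone (limma adjusted p = 0.0243 for KO1 and 0.0293 for KO2). These calls rest on 4 to 49 reads a library and, with a library removed, disappeared in 4 of 9 fits for KO1 (without KO1 replicate 1, KO1 replicate 3, Vector replicate 1 or Vector replicate 3, adjusted p up to 0.0843) and 3 of 9 for KO2 (without any 1 Vector library, up to 0.0888).

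Among linker histone genes, both low members that were fitted had passed the limit of 0.5 FPKM only through KO1, so the count of H1 genes called higher there was shaped by that limit. HIST1H1C, the main H1 gene, was at 33.2, 31.0 and 28.8 FPKM in KO1, 32.3, 33.5 and 13.6 FPKM in KO2, and 40.1, 33.9 and 46.8 FPKM in Vector, a log2 difference of -0.36 ± 0.29 in KO1 that did not pass the test (limma adjusted p = 0.383). HIST1H1B, which encodes H1.5, was at 1.66, 1.08 and 1.04 FPKM in KO1, 0.665, 0.164 and 0 FPKM in KO2, and 0.357, 0.260 and 0.501 FPKM in Vector, and rose in KO1 by 0.71 ± 0.20 (limma adjusted p = 0.0219). HIST1H1E, which encodes H1.4, was at 0.748, 1.79 and 0.549 FPKM in KO1 and 0.322, 0.0783 and 0.151 FPKM in Vector, and rose by 0.74 ± 0.21 (limma adjusted p = 0.0235). In both genes all KO1 libraries were above all Vector libraries, on at most 22 reads a library. The HIST1H1B call was lost without KO1 replicate 1, Vector replicate 1 or Vector replicate 2 (adjusted p up to 0.0842) and the HIST1H1E call without KO1 replicate 2 or Vector replicate 2 (up to 0.0753). HIST1H1T, the fourth H1 gene by level, had 0 to 4 reads a library.

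The 4 fitted H3 genes did not pass the test in KO1. HIST1H3H, the main H3 gene and an H3.1 gene, was at 12, 11.2 and 10.6 FPKM in KO1, 8.42, 7.26 and 6.19 FPKM in KO2, and 10.5, 8.07 and 7.91 FPKM in Vector. KO1 lay above Vector in all libraries, with a difference of 0.33 ± 0.14 (limma adjusted p = 0.0904). Of the H4 genes, HIST1H4K (chr6:27831216-27831527, minus strand) was at 8.64, 9.85 and 8.91 FPKM in KO1, 3.63, 4.11 and 3.37 FPKM in KO2, and 3.51, 3.6 and 5.65 FPKM in Vector, and rose in KO1 by 0.97 ± 0.15 (limma adjusted p = 0.00136). The main H4 gene, HIST1H4I, was at 33.5, 33.5 and 31.4 FPKM in KO1, 29, 28.5 and 19.6 FPKM in KO2, and 39.8, 33.1 and 26.6 FPKM in Vector, with a difference of 0.00 ± 0.18 in KO1. HIST4H4, the lone member of its cluster on chromosome 12, was at 1.48, 1.31 and 1.86 FPKM in KO1, 1.01, 0.822 and 0.479 FPKM in KO2, and 0.660, 0.848 and 0.662 FPKM in Vector. It rose in KO1 by 0.56 ± 0.14 (limma adjusted p = 0.0155), a call lost without KO1 replicate 3 (0.0645).

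The other gene called lower in KO1 was HIST1H2BH, at 0.791, 0.836 and 0.775 FPKM in KO1, 0.632, 0.542 and 0.390 FPKM in KO2, and 1.71, 1.23 and 1.16 FPKM in Vector. It fell in KO1 by 0.39 ± 0.13 (limma adjusted p = 0.0393), a call that 7 of the 9 fits with a library removed lost, with Vector replicate 3 and KO2 replicate 3 the only libraries whose removal kept it (adjusted p up to 0.126). It fell in KO2 by 0.63 ± 0.13 (limma adjusted p = 0.00554), a call that held with each library left out. Over the 13 calls in KO1, 6 held in every such fit, those of HIST1H2BO, HIST1H2BJ, HIST1H4K, HIST1H2BN, HIST1H2AG and HIST1H2AI.

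**Figure D2:**
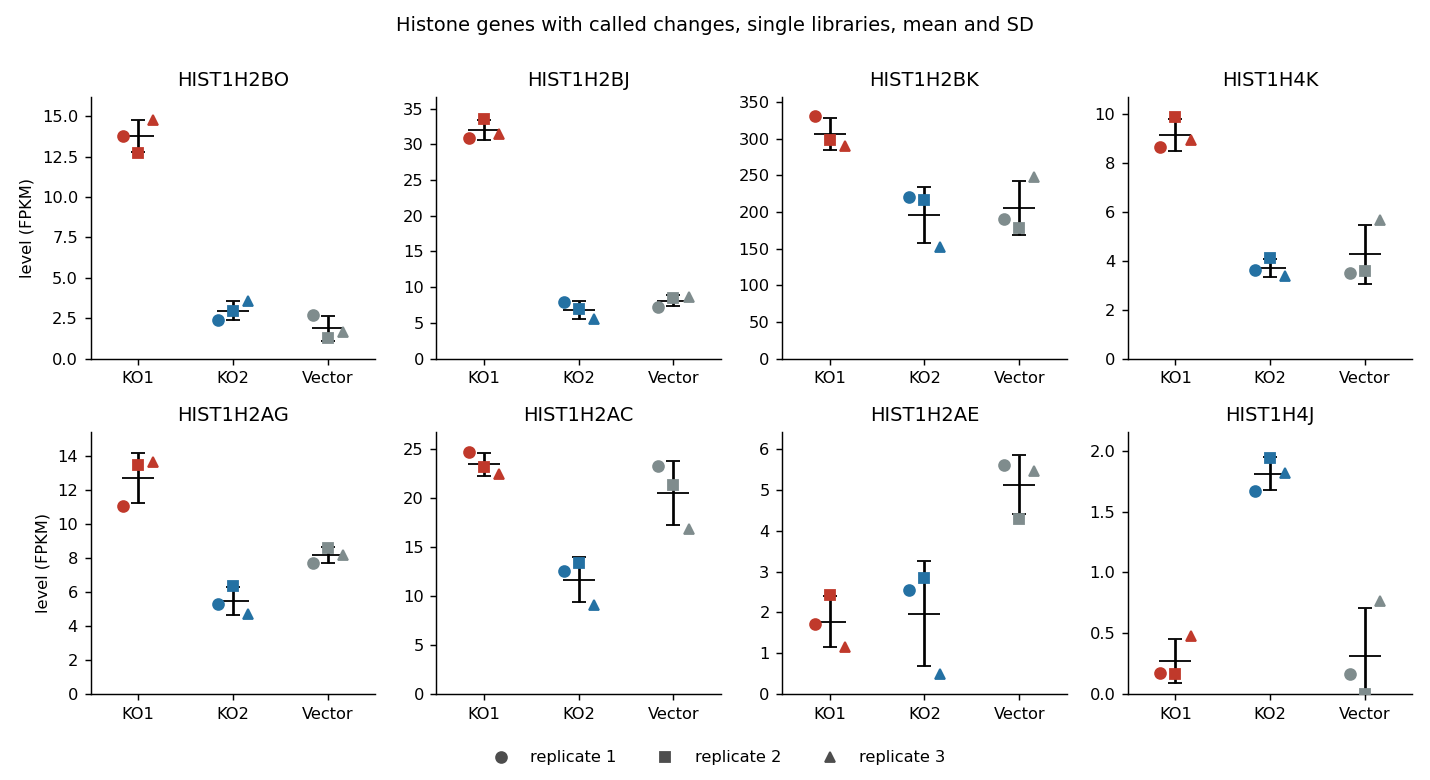
FPKM of 8 named members (vertical axes, each from 0) in KO1, KO2 and Vector, with symbols for replicates 1 to 3 and bars for the mean and SD of 3 libraries. HIST1H2BO, HIST1H2BJ, HIST1H4K and HIST1H2AG are high in KO1, HIST1H2AC is low in KO2, HIST1H2AE is low in both clones and HIST1H4J is high in KO2.

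The calls in KO1 were unevenly placed along chromosome 6. The members lie in 8 stretches separated by more than 0.5 Mb, of which 3 are on chromosome 6 (hg38): the first with 34 members at 25.73 to 26.29 Mb, the second with 5 at 27.13 to 27.15 Mb and the third with 16 at 27.81 to 27.89 Mb. In KO1, 3 of 4 fitted genes of the second stretch and 6 of 10 of the third were called higher and 0 lower, with median log2 fold changes of 0.58 and 0.61. In the first stretch 1 of 14 was called higher (HIST1H1E) and 2 lower, with a median of -0.11. Over all fitted genes 17.4% were called higher in KO1 and 16.7% lower. HIST1H1E and, in the third stretch, HIST1H1B passed the limit of 0.5 FPKM only through KO1. The counts of higher genes in these 2 stretches were therefore shaped by that limit. The summed FPKM of the third stretch was 51.8, 50.8 and 50.6 in KO1, 28.6, 24.7 and 24.1 in KO2, and 26.3, 21.4 and 28.3 in Vector, a ratio of 2.02 for KO1 to Vector with no overlap. The first stretch summed to 93.1, 92.7 and 82.5 FPKM in KO1, 81, 80 and 48.2 FPKM in KO2, and 104, 90 and 105 FPKM in Vector, a ratio of 0.895 for KO1 to Vector with overlap. No test of one stretch against another was run. On chromosome 1, 0 of the 4 fitted HIST2 genes and the 1 fitted HIST3 gene were called in any comparison (also 0 at an unadjusted p under 0.05).

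Genes that are not histone genes but lie beside the second and the third stretch were read in the same way. AL021807.1 (chr6:27122657-27123221, minus strand), 3' of HIST1H2BJ on its strand, was at 20.6, 23.5 and 22.5 FPKM in KO1, 4.71, 5.43 and 3.50 FPKM in KO2, and 7.64, 4.71 and 5.04 FPKM in Vector, a change of 1.80 ± 0.18 in KO1 (limma adjusted p = 9.53e-05). OR2B6, an olfactory receptor gene within 0.1 Mb after the third stretch, was at 4.72, 5.22 and 4.96 FPKM in KO1, 1.08, 1.36 and 0.459 FPKM in KO2, and 2.26, 0.815 and 0.604 FPKM in Vector, and rose in KO1 by 1.49 ± 0.26 (limma adjusted p = 0.00243). Its neighbour OR2W6P had means of 1.58 FPKM in KO1, 0.449 FPKM in KO2 and 0.433 FPKM in Vector. OR2W6P rose in KO1 by 0.86 ± 0.23 (limma adjusted p = 0.0178). It passed the limit of 0.5 FPKM only through KO1, so this call was shaped by that limit. AL021807.1, OR2B6 and the histone genes HIST1H2BJ and HIST1H2BO were thus high in KO1, with KO2 and Vector overlapping. Most other genes nearby were not. Of 15 fitted genes between the first and the second stretch that are not histone genes, 1 was called higher in KO1, AL021807.1 itself, and 7 lower. Before the first stretch 1 of 11 was higher and 5 lower. Within 0.1 Mb after the third, the 2 of 3 called higher were OR2B6 and OR2W6P, with 0 lower. Further after it 0 of 23 were higher and 4 lower. Over all fitted genes 17.4% were called higher in KO1 and 16.7% lower. These counts and those that follow are small and were not tested against these shares. Between the second and the third stretch, of 5 fitted genes, 0 were called higher and 3 lower in KO1. PRSS16, a serine protease gene, was at 0.569, 0.651 and 0.794 FPKM in KO1 and 2.86, 3.54 and 3.41 FPKM in Vector (log2 fold change -1.35 ± 0.12, limma adjusted p = 5.38e-05). ZNF204P and ZNF391 fell by 1.57 ± 0.16 and 0.76 ± 0.12 on the log2 scale (limma adjusted p = 9.91e-05 and 0.00123). Of 4 fitted genes between the histone genes of the first stretch, 0 were called higher and 3 lower. Subtracting the median change of all other genes within 5 Mb left the counts in KO1 at 11 higher and 1 lower, but turned the median of the first stretch to 0.03, with 2 of its 14 genes called higher and 1 lower. The medians of the second and the third stretch were then 0.59 and 0.62. Copy number and chromatin state were not measured, and their part was not tested.

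**Figure D3:**
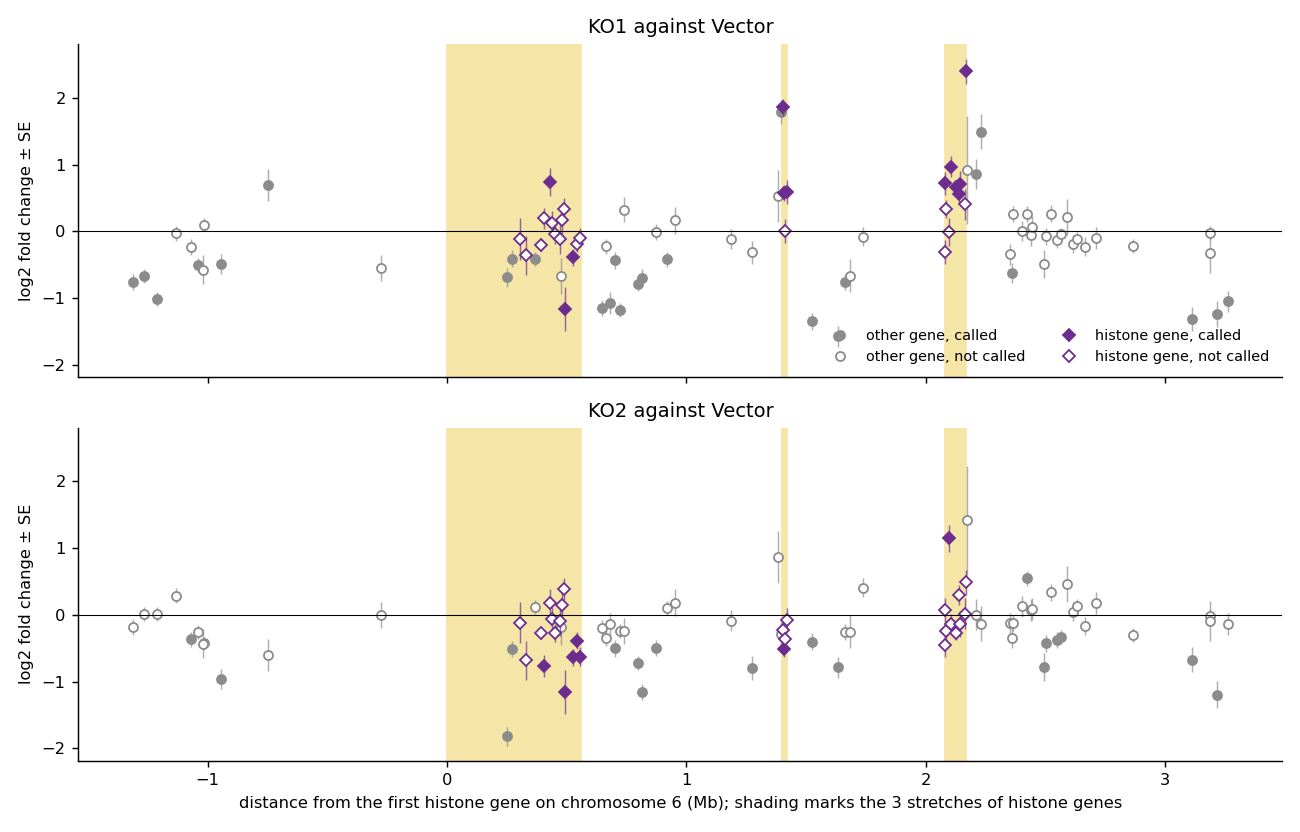
Log2 fold change with SE (vertical axis) against distance in Mb from the first histone gene on chromosome 6 (horizontal axis), in KO1 (upper panel) and KO2 (lower panel), each against Vector. Diamonds are histone genes, circles other genes, filled symbols are called, and shading marks the 3 stretches. In KO1 the histone genes of the second and the third stretch have medians of 0.58 and 0.61, in KO2 of -0.30 and -0.06.

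KO2 was called different from Vector in 7 histone genes, 6 of them lower, a count that depended on how the libraries were weighted. Of the 34 fitted members 1 (2.9%) was called higher, where 12.9% of all fitted genes were, and 6 (17.6%) lower, where 15% of all were (27.9% in either direction), so the share called lower is near that of all genes. The median log2 fold change was -0.13 over the members and 0.00 over all fitted genes. Called lower were 3 H2A genes (HIST1H2AC, HIST1H2AE and HIST1H2AG), HIST1H2BH, HIST1H3G and HIST1H4H. Of these 6, 5 lie in the first chromosome 6 stretch, where 5 of 14 fitted genes were called lower and 0 higher, and HIST1H2AG lies in the second.

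HIST1H2AC (chr6:26124145-26139116, plus strand), the most abundant H2A gene, was at 12.5, 13.4 and 9.03 FPKM in KO2, against 23.2, 21.4 and 16.9 FPKM in Vector, and KO1 had 24.7, 23.2 and 22.5 FPKM. All KO2 libraries were below the other 6. It fell in KO2 by 0.77 ± 0.16 (limma adjusted p = 0.0071), and it did not differ in KO1 by the test (0.20 ± 0.16, limma adjusted p = 0.378). HIST1H4H was at 1.6, 1.7 and 1.37 FPKM in KO2 and 3.57, 3 and 2.37 FPKM in Vector, and fell by 0.63 ± 0.14 (limma adjusted p = 0.0103). HIST1H2AG, which rose in KO1, fell in KO2 by 0.51 ± 0.12 (limma adjusted p = 0.0136), a call lost without Vector replicate 2 (limma adjusted p = 0.05001). HIST1H3G was at 0.305, 0.509 and 0.333 FPKM in KO2 and 0.882, 0.686 and 0.850 FPKM in Vector (-0.39 ± 0.12, limma adjusted p = 0.0431), and lost its call whichever of the 9 libraries was left out (adjusted p up to 0.122). HIST1H2BO, the largest change in KO1, was 0.49 ± 0.18 in KO2 and not called (limma adjusted p = 0.0787), and HIST1H2BJ was -0.23 ± 0.13 (limma adjusted p = 0.209).

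The gene called higher in KO2 was HIST1H4J (chr6:27824108-27824480, plus strand), at 1.67, 1.94 and 1.82 FPKM in KO2, 0.168, 0.165 and 0.476 FPKM in KO1, and 0.163, 0 and 0.763 FPKM in Vector. The KO2 libraries held 11, 13 and 11 reads, against 1, 0 and 5 in Vector, and did not overlap the other groups. The gene passed the limit of 0.5 FPKM only through KO2, with means of 0.270 FPKM in KO1 and 0.309 FPKM in Vector. Its log2 fold change was 1.15 ± 0.20 (limma adjusted p = 0.0034), and the call held with each library left out. Every 50-base stretch of HIST1H4K is also found in another gene, among them HIST1H4J, and 81.2% of those of HIST1H4J are found in HIST1H4K, so reads of this pair cannot be told apart over most of their length. HIST1H4K was high in KO1 and HIST1H4J in KO2, and how reads of the pair were assigned is not given in the sources used here. HIST1H2BK and HIST1H2AI share 74.1% and 62.3% of their 50-base stretches with other genes, and the other 30 fitted members share less than 50%.

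The KO2 counts moved with the libraries that stood apart. With KO2 replicate 3 and Vector replicate 3 both removed, the fit gave 3 members higher and 7 lower, and turned the members' median to 0.09. Weighting libraries by their fit, which set KO2 replicate 3 to a weight of 0.163 and Vector replicate 3 to 0.106, gave 9 higher and 10 lower in KO2 with a median of 0.01, and 15 higher and 3 lower in KO1. Leaving out Vector replicate 2 gave 3 lower.

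The clones differed from each other in 13 of the 34 members. Set against KO1, KO2 had 1 member called higher (2.9%), where 14.5% of all fitted genes were, and 12 lower (35.3%), where 16.4% of all were (30.9% in either direction), with a median of -0.33 over the members and -0.02 over all fitted genes. These values share KO1 libraries with the first comparison, so a gene high in KO1 enters both. The largest were HIST1H2BJ at -2.09 ± 0.13 (limma adjusted p = 8.52e-06), HIST1H2BO at -1.91 ± 0.18 (limma adjusted p = 0.000104) and HIST1H4K at -1.11 ± 0.15 (limma adjusted p = 0.000772). HIST1H2AG followed at -1.09 ± 0.12 (limma adjusted p = 0.00025), HIST1H2AC at -0.96 ± 0.16 (limma adjusted p = 0.00198) and HIST1H2BN at -0.94 ± 0.10 (limma adjusted p = 0.00021). HIST1H1B, HIST1H2BK, HIST1H2AI, HIST1H3H, HIST4H4 and HIST1H4H were lower in KO2 by 0.53 to 0.85 on the log2 scale. Of the 4 fitted genes in the second stretch 3 were lower in KO2, and of the 10 in the third 6 were lower and 1, HIST1H4J, higher. Without KO1 replicate 1 the number called lower was 7 in place of 12. HIST1H4H, HIST1H2BK, HIST1H2AI, HIST1H3H and HIST4H4 lost their calls in that fit, some of them also without KO1 replicate 2 or 3 or KO2 replicate 2 or 3, with an adjusted p up to 0.0829. The other 8 calls held in every fit that left out a library. Those of HIST1H1B and HIST1H4J were shaped by the limit of 0.5 FPKM, which HIST1H1B passed only through KO1 and HIST1H4J only through KO2. HIST1H2AE, low in both clones, showed a difference of 0.01 ± 0.33 between them.

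**Figure D4:**
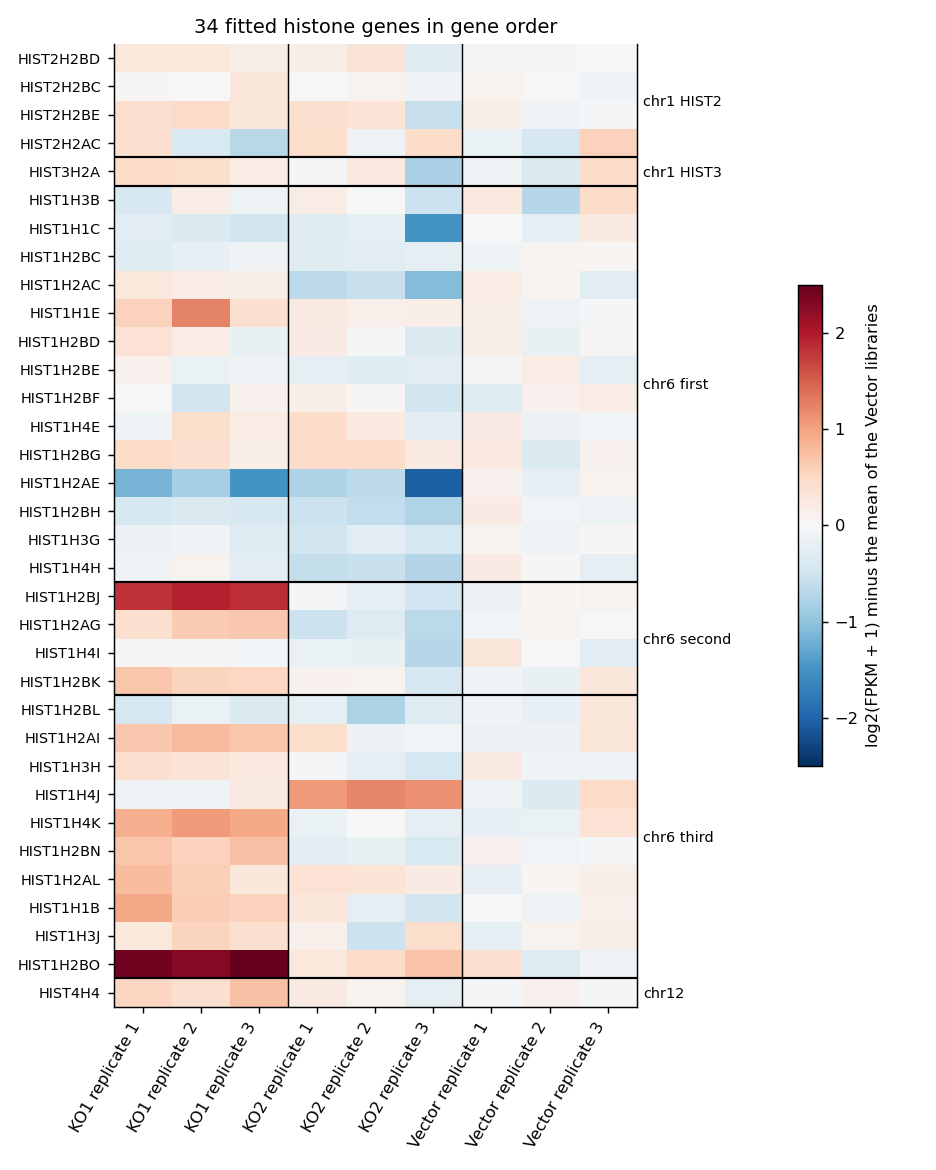
Log2(FPKM + 1) of the 34 fitted members in each library, less the mean of the 3 Vector libraries (colour scale from blue, lower, to red, higher). Rows follow gene order and black lines separate the stretches, and columns are KO1, KO2 and Vector libraries. HIST1H2BJ and HIST1H2BO are the deepest red, in KO1, and KO2 replicate 3 is the bluest library in the first chromosome 6 stretch.

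H2A and H2B genes often lie head to head and share the DNA between their starts. Within 1000 bases, 14 such pairs of members were annotated, 13 of them of an H2A and an H2B gene, with 124 to 357 bases between the starts, and in 6 pairs both genes were fitted. The printed HIST1H2BJ window and that of HIST1H2AG overlap by 253 of 300 bases, and in KO1 the log2 fold changes of this pair were 1.86 and 0.58, in KO2 -0.23 and -0.51. HIST1H2BG and HIST1H2AE, 283 bases apart, had 0.34 and -1.16 in KO1 and 0.38 and -1.16 in KO2. HIST1H2BC and HIST1H2AC had -0.20 and 0.20 in KO1 and -0.27 and -0.77 in KO2. HIST1H3J and HIST1H2BO had 0.41 and 2.40 in KO1 and 0.01 and 0.49 in KO2. The partners had unequal values in these pairs, and the difference within a pair was not tested. Over all fitted members with a window, 5 of 14 with the octamer and 6 of 16 without it were called higher in KO1, with medians of 0.27 and 0.25. By annotation, 7 of 11 fitted members with no annotated loop were called higher in KO1. Of those annotated 200 or more bases past the loop 3 of 17 were, and of those that stop within 200 bases 1 of 6. Over all fitted genes 17.4% were called higher. HIST1H1E and HIST1H1B, among the 7 and among the called members without the octamer, passed the limit of 0.5 FPKM only through KO1. Both counts were therefore shaped by that limit. Most of the 7 lie on chromosome 6 between 27.13 and 27.89 Mb, so annotation and position cannot be told apart here. The difference between the classes was not tested.

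**Figure D5:**
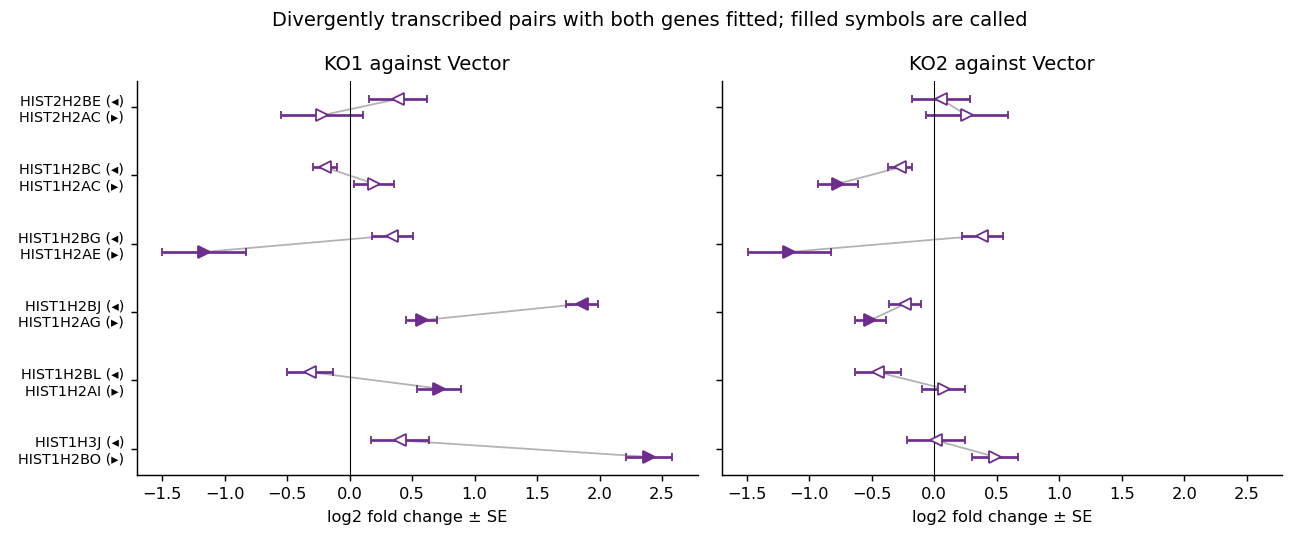
Log2 fold change with SE (horizontal axis) of the 6 head-to-head pairs in which both genes were fitted, in KO1 (left) and KO2 (right) against Vector. Left-pointing symbols are minus-strand genes, right-pointing ones plus-strand genes, and filled symbols are called. The partners HIST1H2BG and HIST1H2AE lie on opposite sides of 0 in both clones.

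Other genes of the histone supply were read from lists of named genes. Of 11 fitted replication-independent histone genes, which are expressed outside S phase and have tailed mRNAs, 4 were called higher and 0 lower in KO1, and 2 higher and 2 lower in KO2. The KO1 shares were 36.4% and 0%, where 17.4% and 16.7% of all fitted genes were called. The KO2 shares were 18.2% and 18.2%, where 12.9% and 15% of all were. H3F3B, which encodes the variant H3.3, was at 229.8, 215 and 205 FPKM in KO1, 66.4, 66 and 51.8 FPKM in KO2, and 107, 90.5 and 93.2 FPKM in Vector. It rose in KO1 by 1.15 ± 0.13 (limma adjusted p = 0.000189). It fell in KO2 by 0.66 ± 0.13 (limma adjusted p = 0.00543), with no overlap between the 3 groups. H2AFY, which encodes macroH2A1, rose in KO1 by 0.70 ± 0.08 (limma adjusted p = 0.000217). H1F0, the linker histone of resting cells, rose in KO2 by 0.81 ± 0.15 (limma adjusted p = 0.00421), and CENPA, the centromeric H3 variant, fell there by 0.75 ± 0.15 (limma adjusted p = 0.00559). H2AFY2, which encodes macroH2A2, rose in KO1 by 0.56 ± 0.11 and in KO2 by 0.63 ± 0.11 (limma adjusted p = 0.00463 and 0.00327).

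Among 26 genes of histone gene transcription and 3' end processing, 6 were called higher and 5 lower in KO1, and 2 higher and 6 lower in KO2. The KO1 shares of 23.1% and 19.2% stand near the 17.4% and 16.7% of all fitted genes. The KO2 shares were 7.7% and 23.1%, where 12.9% and 15% of all were called. CCNE1, cyclin E1, which with CDK2 switches on histone transcription through NPAT, was at 0.836, 1.06 and 1.09 FPKM in KO1, 2.22, 1.71 and 1.77 FPKM in KO2, and 5.81, 4.93 and 5.36 FPKM in Vector. It fell in KO1 by 1.67 ± 0.11 and in KO2 by 1.14 ± 0.11 (limma adjusted p = 8.1e-06 and 0.000116). SLBP, the stem-loop binding protein, was at 33.9, 36.3 and 22.8 FPKM in KO2 and 61.4, 51.9 and 46.7 FPKM in Vector, a fall of 0.78 ± 0.18 in KO2 (limma adjusted p = 0.0107), and did not pass in KO1 (-0.31 ± 0.18, limma adjusted p = 0.214). CPSF2, part of the cleavage complex, fell in KO1 by 1.07 ± 0.16 and in KO2 by 0.70 ± 0.16 (limma adjusted p = 0.000871 and 0.00993). ZNF473, a zinc finger protein of the U7 particle, rose in KO1 by 0.70 ± 0.14 and in KO2 by 0.90 ± 0.14 (limma adjusted p = 0.00488 and 0.00159). NFYA, a subunit of the CCAAT-binding factor, rose in KO1 by 0.44 ± 0.08 (limma adjusted p = 0.00375), E2F1 by 0.87 ± 0.19 (limma adjusted p = 0.00784), and YY1 fell there by 0.98 ± 0.09 (limma adjusted p = 7.82e-05). SYMPK, symplekin of the cleavage complex, rose in KO2 by 0.63 ± 0.15 (limma adjusted p = 0.013).

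Of 13 fitted genes of histone mRNA decay, 1 (7.7%) was called higher and 0 lower in KO1, where 17.4% and 16.7% of all fitted genes were. In KO2, 1 (7.7%) was higher and 3 (23.1%) lower, where 12.9% and 15% of all were. The decapping enzyme gene DCP2 rose in KO1 by 0.59 ± 0.13 and in KO2 by 0.53 ± 0.13 (limma adjusted p = 0.00849 and 0.0163). ERI1, the exonuclease that trims the stem-loop, fell in KO2 by 0.54 ± 0.12 (limma adjusted p = 0.0101), as did TENT4A by 0.56 ± 0.10 (limma adjusted p = 0.00317) and EXOSC10 by 0.28 ± 0.08 (limma adjusted p = 0.0333). Of 11 genes of 3' end control, 2 (18.2%) were called higher and 1 (9.1%) lower in KO1, and 1 (9.1%) higher and 2 (18.2%) lower in KO2. These shares are to be read beside the same shares of all fitted genes. NELFE, of the NELF complex, rose in KO1 by 0.52 ± 0.11 and in KO2 by 0.36 ± 0.11 (limma adjusted p = 0.00745 and 0.0452), and ZC3H14, a poly(A)-binding protein, fell by 0.97 ± 0.12 and 0.49 ± 0.12 (limma adjusted p = 0.000401 and 0.0163). NELFCD rose in KO1 by 0.51 ± 0.10 (limma adjusted p = 0.00423), and RBBP6 fell in KO2 by 0.45 ± 0.11 (limma adjusted p = 0.0176).

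Of 18 fitted histone chaperone genes, 3 (16.7%) were called higher and 3 (16.7%) lower in KO1, near the 17.4% and 16.7% of all fitted genes. In KO2, 1 (5.6%) was higher and 5 (27.8%) lower, where 12.9% and 15% of all were. UBN1, of the HIRA complex that deposits H3.3, rose in KO1 by 1.47 ± 0.14 (limma adjusted p = 7.99e-05), and HJURP, the chaperone of CENPA, by 1.10 ± 0.09 (limma adjusted p = 3.4e-05). The FACT subunits split in KO1, with SSRP1 up by 0.69 ± 0.12 and SUPT16H down by 0.72 ± 0.10 (limma adjusted p = 0.00265 and 0.000726). ASF1A, which carries H3 and H4, fell in KO2 by 0.99 ± 0.15 (limma adjusted p = 0.00123), and CHAF1B, of the CAF-1 complex, fell in KO1 by 0.33 ± 0.11 and in KO2 by 0.47 ± 0.11 (limma adjusted p = 0.0401 and 0.0111). Of 39 S phase genes, 6 (15.4%) were called higher and 8 (20.5%) lower in KO1 (median -0.03), shares near the 17.4% and 16.7% of all fitted genes. In KO2, 3 (7.7%) were higher and 11 (28.2%) lower (median -0.25), beside 12.9% and 15% of all. LIG1, the ligase that joins Okazaki fragments, rose in KO1 by 1.19 ± 0.14 and in KO2 by 0.70 ± 0.14 (limma adjusted p = 0.000291 and 0.00687), and POLD1, the catalytic subunit of polymerase delta, by 0.94 ± 0.18 and 1.15 ± 0.18 (limma adjusted p = 0.00376 and 0.00161). Of the subunits of the replicative helicase and its loader complexes named by the same rule, MCM6 fell by 0.89 ± 0.10 in KO1, and MCM3 and CDC45 fell by 0.69 ± 0.10 and 0.63 ± 0.10 in KO2 (limma adjusted p = 0.000202, 0.000858 and 0.00159). GINS4, another helicase subunit, rose in KO2 by 0.45 ± 0.10 (limma adjusted p = 0.00835).

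RNAs that end without a tail were read as well, though their values also depend on how reads with several matches were counted, which is not stated. RN7SK, RMRP, RPPH1 and RN7SL1, abundant in all cells, were listed at 0 in all 9 libraries. RMRP is listed in rows that overlap on the same strand, and RN7SL1 has a further copy in RN7SL2. A 0 therefore does not show that an RNA was absent from the libraries. RN7SL2, another copy of the signal recognition particle RNA, was at 56, 25.2 and 34.9 FPKM in KO1, 29.2, 30.9 and 26.8 FPKM in KO2, and 24.9, 27 and 121 FPKM in Vector. The 2322 rows of small nuclear, nucleolar, Y and polymerase III RNAs include pseudogene copies such as RNU6-316P. Their sum was 655, 754 and 819 FPKM in KO1, 905, 952 and 1167 FPKM in KO2, and 1019, 1216 and 1038 FPKM in Vector. KO1 libraries were lowest and KO2 and Vector overlapped. Of 308 fitted rows, 6 (1.9%) were called higher and 36 (11.7%) lower in KO1 (median -0.22), where 17.4% and 16.7% of all fitted genes were. In KO2, 17 (5.5%) were higher and 12 (3.9%) lower (median 0.00), where 12.9% and 15% of all were. SNORA73B, a nucleolar RNA, had a mean of 4.98 ± 0.498 FPKM in KO1 and 25.4 ± 4.10 FPKM in Vector (SD, n = 3 each; log2 fold change -2.13 ± 0.27, limma adjusted p = 0.000385). Their part in the histone values was not tested.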

How the data were processed

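RNA was measured in 9 libraries of H1299 cells, 3 each of KO1, KO2 and Vector. Per the labels' protocols, total RNA was extracted with TRIzol and libraries were made with a NEBNext Ultra RNA kit and sequenced on an Illumina NovaSeq. The submitters' processing notes name CASAVA 1.6, HISAT2 2.0.5, featureCounts 1.5.0-p3 and hg38; their options, strand setting and handling of reads with several matches are not stated in these sources. The values are FPKM per gene, as deposited by the authors.

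Whole reads recovered from the FPKM steps came out whole (within 0.02) for 100% of values and gave the depths, 16002212 to 17090445 reads. Because the deposited values are FPKM, log2(FPKM + 1) was fitted with limma 3.58.1 in R 4.3.3 (trended empirical Bayes, all 9 libraries) over the 16426 genes averaging 0.5 FPKM or more. P-values were adjusted by Benjamini-Hochberg over all of these and called under 0.05. Sums and sequence searches used Python 3.11.15. The fit was tested on simulated data. Members, gene lists and tests were chosen with earlier results of these data known. Genes named with values are the 4 most abundant members of each type, up to 6 called members with the largest changes in each direction and comparison, HIST4H4, the members beside the filter limit, BCKDK, and in each other list up to 3 genes with the smallest p in each direction and clone. The chromosome 6 neighbours, NPAT and any further member were named after their values were seen. Libraries with the same replicate number were checked for pairing.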

Additional observations from a re-analysis of the deposited data

Results flagged for a closer look

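The change from Vector differed between the clones in 13 members by the test of KO2 against KO1 (limma, adjusted over all fitted genes). Lower in KO2 were HIST1H2BJ by a log2 difference of -2.09, HIST1H2BO (-1.91), HIST1H4K (-1.11), HIST1H2AG (-1.09), HIST1H2AC (-0.96), HIST1H2BN (-0.94) and HIST1H1B (-0.85). Smaller differences in the same direction were those of HIST1H2BK (-0.66), HIST1H2AI (-0.64), HIST1H3H (-0.57), HIST4H4 (-0.53) and HIST1H4H (-0.53). HIST1H4J was higher in KO2, by 1.16. HIST1H1B passed the limit of 0.5 FPKM only through KO1 and HIST1H4J only through KO2, so their differences were shaped by that limit. Each clone is a single line, so a difference between clones and one between edits cannot be told apart.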

How the results depend on the processing

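Over 24 named changes and 473 values under other settings, 0 reversed, 55 lost their call and 418 kept it. These were up to 6 called members with the largest changes in each direction and comparison, and HIST4H4, so smaller calls are not in these numbers. Of the smaller calls in KO1, HIST1H2BK lost its call in 8 of 20 other settings and HIST1H2AL in 5. HIST1H2BN and HIST1H2AG lost theirs in 0. Members called lower in KO1 numbered 2, and 0 with log2(FPKM + 0.1), 1 with no filter (a member under the usual limit, with 0 of the 34 fitted members left) and 1 with a limit of 1 FPKM, a replicate block, neighbours subtracted or limma-voom on recovered reads (0 to 2 with a library left out). Higher in KO1 were 11 (8 to 12 with a library left out). Higher in KO2 was 1, and 0 at a limit of 1 FPKM, 3 without Vector replicate 3 and KO2 replicate 3 together and 9 with library weights (1 to 2 with a library left out). Lower in KO2 were 6, and 10 with library weights (3 to 6 with a library left out). Higher in KO2 than in KO1 was 1, and 0 at a limit of 1 FPKM (1 with any library left out). Lower were 12 (7 to 12). Without each type's top gene, the ratio of KO1 to Vector was 2.62 for H1 (0.81 with it), 1.78 for H2B (1.55), 0.845 for H3 (1.15) and 1.58 for H4 (1.12). That of KO2 to Vector was 1.01 for H4 (0.828), and that of KO2 to KO1 was 0.356 for H1 (0.818) and 0.977 for H3 (0.721). Scaled to equal sums of FPKM, the ratio of KO1 to Vector was 1.13 for H2A (1.21), 1.45 for H2B, 1.08 for H3 and 1.06 for H4. The cause was not tested.

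Same-numbered libraries were not paired, with correlations of their deviations from -0.20 to 0.14 over 9 pairs and 1 of 9 libraries closest to its own number; with the replicate block, members called higher and lower were 11 and 1 in KO1, 1 and 5 in KO2, and 1 and 12 between KO2 and KO1. The alternative count-model tests were not run because the deposited values are FPKM. The limma-voom fit was added after seeing the data. Low members rest on few reads, and the size of change that this depth could show for them was not tested.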
